A study of Mus musculus with 8 samples.

Results

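The genes of DNA repair, of the damage checkpoint and of the p53 response were followed in single mouse blastocysts, allele by allele. The 88 members were chosen by symbol from the 22810 genes counted, as the Xrcc, Brca, Fanc, Msh, Mlh, Parp, Lig and Ercc families and a set of Rad genes, together with Trp53 and its named partners, Atm, Atr, Chek1, Chek2, Mdm2, Mdm4, Bax, Bak1, Bbc3 and Wrap53. A further 2 matching symbols, Fancb and Ercc6l, are X-linked and were left out. All 88 members lie on autosomes and are spread over 19 chromosomes. The rule reads only the symbols.

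Blastocysts of embryonic day 3.5 came from natural matings of C57BL/6 (B6) and Mus musculus castaneus (cast) mice and were lysed singly, without culture, for SMART-Seq2, which amplifies full-length polyadenylated RNA. There were 3 embryos with a B6 mother and a cast father (forward cross) and 5 with a cast mother and a B6 father (reverse cross), the latter numbered 1, 2, 3, 5 and 7. None of the embryos was treated or carries an engineered allele. The values are deposited counts of reads that cover a SNP between both strains, so that the maternal allele is B6 in the forward cross and cast in the reverse cross.

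Double-strand breaks are mended by homologous recombination, which depends on Brca1 and Brca2, or by end joining, in which the Ku proteins Xrcc5 and Xrcc6 hold the ends. The Fanconi anaemia proteins remove crosslinks between the strands, mismatch repair corrects replication errors, and the kinases Atm and Atr signal damage to Chek2 and Chek1 and to p53. The p53 protein (Trp53) is held down by Mdm2 and Mdm4 and turns on the cell death genes Bax and Bbc3. The blastocyst, with its outer trophectoderm and its inner cell mass, divides rapidly, and DNA damage there is known to trigger p53-dependent cell death.

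SNP-spanning reads summed to 1060063 to 1632695 per embryo, and 57.4% to 58.3% of them came from B6 in every embryo, so allele shares are given after scaling each allele library by its own size (TMM). The members gave 67885 reads. Of the 88 members, 79 reached 10 reads in at least 1 allele library and were tested, among 12564 autosomal genes, with a median of 500 reads against 309 over all genes tested. The 9 members below this limit were Fancf, Msh5, Parp3, Parp9, Parp10, Parp14, Rad51ap2, Rad51c and Trp53tg5, with at most 43 reads over all embryos. Levels are in RPM, reads of both alleles per 1000000 of the effective library. Reverse embryo 1 stood apart from the other embryos in the levels of many genes (its summed trophectoderm markers were at 846 RPM, against 3717 to 5256 elsewhere, with all 7 markers read), and results that rest on it are given with and without it. Forward embryo 1 had 707 RPM of 8 macrophage and leukocyte markers, against 3.91 to 37.9 in the other embryos, and 98.3% of the reads of that list were maternal. A gene is said to be called below where edgeR's quasi-likelihood test, with embryos as replicates, gave an adjusted p not above 0.1. The labels do not say which embryos share a litter, so p-values measure the spread between these embryos.

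The first question was whether the maternal or the paternal allele of a member was read more often in both crosses. A single member, Fancl, was called, and the remaining 78 were not. Fancl encodes the ubiquitin ligase of the Fanconi core complex, which attaches ubiquitin to Fancd2 and Fanci. It was called toward the maternal allele, where 0.31% of all genes tested were called, 0 members were called toward the paternal allele, beside 1.11%, and over both directions 1 of 79 members (1.27%) was called beside 1.42% of all genes. DESeq2 called 2 members (2.08% of all genes), as did the fit with embryo terms (3.1%) and the fit without reverse embryo 1 (1.64%). The median log2 difference of paternal over maternal allele was -0.06 over the members and -0.01 over all genes tested.

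Fancl lies on chromosome 11 from 26386135 to 26471876 on the plus strand (mm10, GENCODE M21). Its maternal reads against paternal reads were 87 against 13, 44 against 2 and 51 against 1 in forward embryos 1, 2 and 3. In reverse embryos 1, 2, 3, 5 and 7 they were 57 against 33, 53 against 16, 16 against 18, 37 against 24 and 29 against 19. Maternal reads were thus the more numerous in all but reverse embryo 3, and the scaled paternal share was below 50% in 8 of 8 embryos, at 7.94% ± 7.27 (SD, n = 3) in the forward cross and 32.9% ± 10.2 (SD, n = 5) in the reverse cross. The paternal allele was 2.08 lower on the log2 scale (SE 0.41, edgeR quasi-likelihood test, adjusted p = 0.00658). The crosses did not overlap in the share, but the strain term of Fancl missed the threshold (log2 cast over B6 -0.95, SE 0.41, adjusted p = 0.15) and was called with a term for each embryo. At its 3′ end Fancl shares 462 exon bases (13.7% of its own) with Vrk2, which runs the other way. Vrk2, a kinase gene, had 156 maternal and 33 paternal reads in the forward cross and 142 and 206 in the reverse cross, and was not called by parent (log2 -0.81, SE 0.38, adjusted p = 0.636). The part of the shared bases in the reads of Fancl was not tested.

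Wrap53, which encodes a protein of the telomerase complex and of Cajal bodies, had the next smallest p and leaned to the paternal allele without being called (log2 0.95, SE 0.28, edgeR quasi-likelihood test, adjusted p = 0.144). Its maternal against paternal reads were 60 against 115, 31 against 84 and 41 against 89 in the forward embryos. In the reverse embryos they were 19 against 68, 78 against 60, 59 against 82, 43 against 83 and 28 against 84. The paternal share was 73.7% ± 2.95 (SD, n = 3) and 58.7% ± 14.3 (SD, n = 5), and it was above 50% in 7 of 8 embryos, the exception being reverse embryo 2. Wrap53 was called once embryo terms paired the alleles of each embryo (adjusted p = 0.0143), with DESeq2 (adjusted p = 0.0296) and without reverse embryo 1 (adjusted p = 0.0441). Over the other settings tried its adjusted p reached 0.487.

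Wrap53 stands head to head with Trp53, the p53 gene, which runs in the opposite direction. The window is shown because both genes start in it. It covers chr11:69580109-69580408 on the plus strand (RefSeq, GRCm38.p6, 300 bases from 250 before the start of Trp53), and the capitals mark the 103 bases between the annotated 5′ ends of Wrap53, to the left, and Trp53, to the right.
Trp53 and Wrap53: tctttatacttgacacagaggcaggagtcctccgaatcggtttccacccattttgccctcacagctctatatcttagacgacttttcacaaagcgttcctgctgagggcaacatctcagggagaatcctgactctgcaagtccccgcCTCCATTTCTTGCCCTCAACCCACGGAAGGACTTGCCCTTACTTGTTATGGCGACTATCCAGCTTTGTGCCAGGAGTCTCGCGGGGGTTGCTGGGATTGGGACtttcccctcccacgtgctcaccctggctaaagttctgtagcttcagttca
The window holds 10 CpG dinucleotides, 4 of them between the starts, and 43.5% of the 32851 RefSeq promoter windows of this length hold at least as many.

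Trp53 reads were nearer to even, with paternal shares between 41.0% and 59.0%. Maternal against paternal reads were 20 against 18, 23 against 20 and 25 against 25 in the forward cross, and 10 against 16, 29 against 26, 22 against 28, 21 against 38 and 20 against 24 in the reverse cross. The paternal share was 53.6% ± 1.80 (SD, n = 3) and 50.6% ± 6.71 (SD, n = 5). The alleles were called equivalent within a log2 margin of 1, that is within 2-fold (pair of one-sided quasi-likelihood tests, adjusted p = 0.0437), and Wrap53 was not (adjusted p = 0.545). The difference between both genes was not tested.

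**Figure D1:**
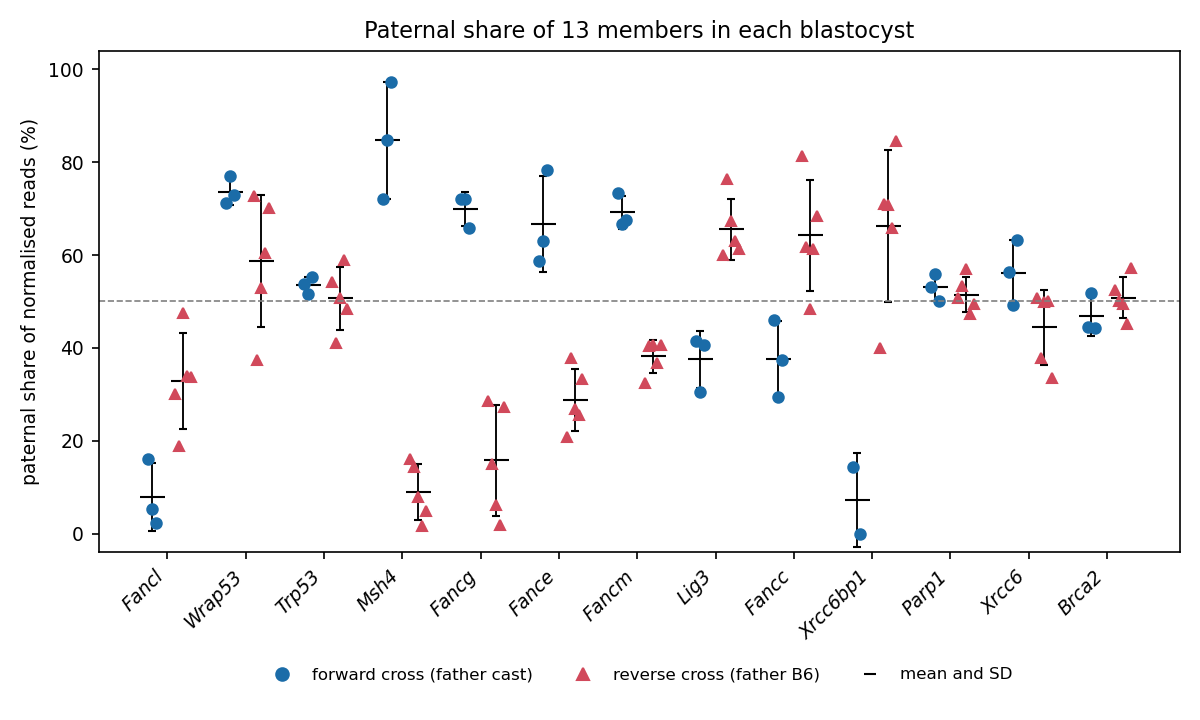
The paternal share of scaled reads (percent, vertical axis) of 13 members is drawn for each blastocyst with at least 10 reads, with circles for the forward cross, triangles for the reverse cross, and bars for the mean and SD. Fancl lay below 50% in 8 of 8 embryos and Wrap53 above 50% in 7 of 8. Msh4, Fancg, Fance and Fancm changed sides between the crosses, as did Lig3 in the opposite direction.

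The other members with small p in this comparison were Parp11, a mono-ADP-ribosyltransferase, Chek2, the kinase activated by Atm, and Mlh3, a MutL homolog. Parp11 had 6 maternal and 41 paternal reads, 21 of the paternal ones in reverse embryo 1 (log2 2.12, SE 1.05, adjusted p = 0.712 in edgeR's quasi-likelihood test). Chek2 had more maternal reads, 324 against 203, and its paternal share fell to 10.3% in reverse embryo 1 (log2 -0.64, SE 0.33, adjusted p = 0.761). Mlh3 had 106 maternal and 59 paternal reads (log2 -1.16, SE 0.60, adjusted p = 0.765). None of the 3 was called under any setting in which it was tested. Parp11 was tested in 12 alternatives only. Without reverse embryo 1 its largest allele library held 8 reads, below the limit of 10, so it could not be tested there.

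For many members the parental alleles were equivalent within 2-fold. Equivalence was called for 37 of 79 members, 46.8%, beside 35.4% of all genes tested. Of the homologous recombination genes 6 of 12 tested were equivalent, among them Brca2, Rad50, Rad51d, Rad52 and Rad54l. Of the end joining genes 2 of 4 tested were, Xrcc5 and Xrcc6. Brca2, a central mediator of recombination, had paternal shares of 46.9% ± 4.23 (SD, n = 3) in forward embryos and 50.8% ± 4.35 (SD, n = 5) in reverse embryos. Xrcc6, the smaller Ku subunit, had 56.2% ± 7.0 (SD, n = 3) and 44.4% ± 8.07 (SD, n = 5), and Xrcc5, the larger one, 45.3% ± 7.17 (SD, n = 3) and 46.0% ± 13.1 (SD, n = 5).

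Mismatch repair gave 3 equivalent genes of 5 tested. Msh6, a subunit of the dimer that finds single mismatches, was among them (adjusted p = 0.0485), with paternal shares of 43.1% ± 2.23 (SD, n = 3) and 48.8% ± 12.5 (SD, n = 5). In single-strand break and base excision repair all 5 tested genes were equivalent (Parp1, Parp2, Lig1, Lig3 and Xrcc1). Parp1, which senses nicks and builds ADP-ribose chains, had 53.1% ± 2.93 (SD, n = 3) and 51.5% ± 3.73 (SD, n = 5), so both crosses lay within a few percent of even. Rad21, the cleavable subunit of cohesin, was also equivalent (adjusted p = 0.0171).

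The checkpoint kinases differed in how firmly they could be placed. Atm was called equivalent (adjusted p = 0.0909) at 48.7% ± 8.81 (SD, n = 3) and 38.7% ± 8.27 (SD, n = 5), and Chek1 as well (adjusted p = 0.0965) although its paternal share ran from 9.34% to 80.0%. Cast was the higher allele of Chek1 at both ends of that range. The call of Atm was kept in 6 and that of Chek1 in 2 of 14 other settings. Atr, with 260 reads, and Chek2 were not (adjusted p = 0.178 and 0.255). Mdm4, the p53 inhibitor, was equivalent (adjusted p = 0.0250) at 48.3% ± 4.16 (SD, n = 3) and 51.4% ± 8.99 (SD, n = 5). Mdm2, the ubiquitin ligase of p53, gave 42 reads in all and was not called in either test. Brca1, which acts upstream of Brca2 in recombination, missed equivalence (adjusted p = 0.146), with 279 of 406 reads paternal in reverse embryo 1 and 65 of 81 in reverse embryo 3. Ercc1 and Ercc2, a nuclease subunit and a helicase of nucleotide excision repair, missed it too (adjusted p = 0.102 and 0.227). Equivalence was called for 47 members with embryo terms (45.3% of all genes), for 50 of 73 members without reverse embryo 1 (47.4% of all genes), and for 20, 15 and 14 members without forward embryo 1, 2 or 3, where 17.0%, 14.6% and 12.9% of all genes were called. No member and no other gene was equivalent within 1.5-fold.

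Summed over all members, the scaled paternal share was 51.3%, 51.4% and 52.3% in the forward embryos, or 51.7% ± 0.515 (SD, n = 3). In the reverse embryos it was 40.9%, 45.6%, 49.2%, 46.0% and 47.1%, or 45.7% ± 3.05 (SD, n = 5). Every reverse embryo was below every forward embryo, with reverse embryo 1 lowest, and the mean without it was 46.9%. The cast allele, paternal in the forward and maternal in the reverse cross, was thus above 50% of the scaled sum in every embryo. The median member, which does not weight genes by reads, had 50.8% ± 0.552 (SD, n = 3) and 44.9% ± 2.75 (SD, n = 5). The median gene had 49.2% ± 0.189 (SD, n = 3) and 50.9% ± 0.590 (SD, n = 5) over all genes tested. The sum was not tested.

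The second question was whether the cast and B6 alleles of a member were read unequally whichever parent gave them. Here 7 of 79 members were called, 8.86%, beside 15.4% of all genes tested. Of these, 4 were called toward cast (Msh4, Fancg, Fancm and Fance, with 4.47% of all genes called in that direction) and 3 toward B6 (Lig3, Fancc and Xrcc6bp1, with 10.9%). With 1 library size per embryo, which leaves the excess of B6 reads in, the median log2 of all genes moved from -0.06 to -0.39, and 2 members were called toward cast (2.6% of all genes) and 7 toward B6 (18.3%), 9 in all (20.9%), without Fancm and Fance. The Fanconi genes held 4 of the 7 calls, out of 8 of them tested. The median log2 cast over B6 was 0.15 over the members and -0.06 over all genes tested. With 1 library size per embryo the median of the members was -0.19, so its sign depends on the scaling. With a term for each embryo 16 members were called (20.3%, beside 25.5% of all genes), and 11 of 73 without reverse embryo 1 (20.5% of all genes), but 2 without forward embryo 2 (10.6% of all genes) and 3 without forward embryo 3 (10.4%).

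Msh4, a MutS homolog known for its part in meiotic crossing over, had the largest difference of the 7. Its B6 reads against cast reads were 32 against 64, 16 against 72 and 2 against 59 in the forward embryos. In the reverse embryos they were 70 against 271, 18 against 84, 2 against 19, 3 against 136 and 7 against 105. Cast was the higher allele in 8 of 8 embryos (log2 2.73, SE 0.59, edgeR quasi-likelihood test, adjusted p = 0.00262), although the cast allele was paternal in the forward and maternal in the reverse cross. Its meiotic partner Msh5 gave 18 reads in all.

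Fancg, a core complex subunit that serves as a scaffold, was also higher from cast in 8 of 8 embryos (log2 1.84, SE 0.42, edgeR quasi-likelihood test, adjusted p = 0.00480). Its B6 against cast reads were 12 against 24, 11 against 23 and 18 against 28 in the forward embryos, and 22 against 41, 20 against 88, 6 against 73, 1 against 41 and 13 against 27 in the reverse embryos. Both Msh4 and Fancg were called under every setting tried. Fancm, the translocase that anchors the core complex to DNA, was cast-biased by a log2 of 0.96 (SE 0.31, adjusted p = 0.0507), with cast shares of 69.2% ± 3.63 (SD, n = 3) and 61.8% ± 3.59 (SD, n = 5). Fance, which links the core complex to Fancd2, was at 1.20 (SE 0.46, adjusted p = 0.0993), with cast shares of 66.7% ± 10.3 (SD, n = 3) and 71.1% ± 6.68 (SD, n = 5). Both were higher from cast in 8 of 8 embryos, but the call of Fance was lost in 8 and that of Fancm in 4 of 14 other settings.

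Fancc, another core subunit, went the other way, with a log2 of -0.77 (SE 0.25, edgeR quasi-likelihood test, adjusted p = 0.0507). Its maternal against paternal reads were 158 against 104, 118 against 40 and 132 against 64 in the forward cross, where B6 is maternal. In the reverse cross they were 29 against 171, 68 against 141, 69 against 80, 53 against 106 and 47 against 130. B6 was the higher allele after scaling in 7 of 8 embryos, reverse embryo 3 being the exception. Of the Fanconi genes not called by strain, Fanca, Fancd2 and Fanci were equivalent between parents, and Fancd2 was called by strain in 1 and Fanci in 3 of 15 settings, with embryo terms among them.

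Lig3, the DNA ligase that works with Xrcc1 and in mitochondria, was the B6-biased member with the smallest p. Its promoter window is shown because a second gene starts in it. It covers chr11:82780859-82781158 on the plus strand (RefSeq, GRCm38.p6), and the capitals mark the 65 bases between the annotated 5′ ends of Gm11423, to the left, and Lig3, to the right.
Lig3 and Gm11423: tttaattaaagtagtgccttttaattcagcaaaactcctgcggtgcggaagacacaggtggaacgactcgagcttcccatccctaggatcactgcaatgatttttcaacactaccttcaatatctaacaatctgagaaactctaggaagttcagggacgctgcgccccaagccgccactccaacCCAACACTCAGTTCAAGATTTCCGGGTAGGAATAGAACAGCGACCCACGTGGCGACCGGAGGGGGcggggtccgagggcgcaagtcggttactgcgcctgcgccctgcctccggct
The window holds 19 CpG dinucleotides, 5 of them between the starts, and 28.1% of all promoter windows hold at least as many.

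The B6 against cast reads of Lig3 were 144 against 79, 129 against 46 and 130 against 72 in the forward embryos. In the reverse embryos they were 176 against 87, 237 against 57, 117 against 46, 139 against 65 and 136 against 67. B6 was higher in 8 of 8 embryos (log2 cast over B6 -0.83, SE 0.22, edgeR quasi-likelihood test, adjusted p = 0.0154). Gm11423 was not called and had 114 B6 and 136 cast reads (log2 0.67, SE 0.53, adjusted p = 0.514). Lig3 shares 1826 exon bases (25.1%) at its other end with Rffl on the opposite strand, and Rffl was not called (log2 0.26, SE 0.31, adjusted p = 0.693). Xrcc6bp1 (named in current annotation as a mitochondrial protease gene) had 52 B6 and 3 cast reads in the forward cross and 103 and 47 in the reverse cross, with a log2 of -1.89 (SE 0.67, adjusted p = 0.0727), and of the 7 embryos with at least 10 reads reverse embryo 1 was the only one with more cast than B6 reads after scaling. Its call was lost in 6 of 14 other settings.

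**Figure D2:**
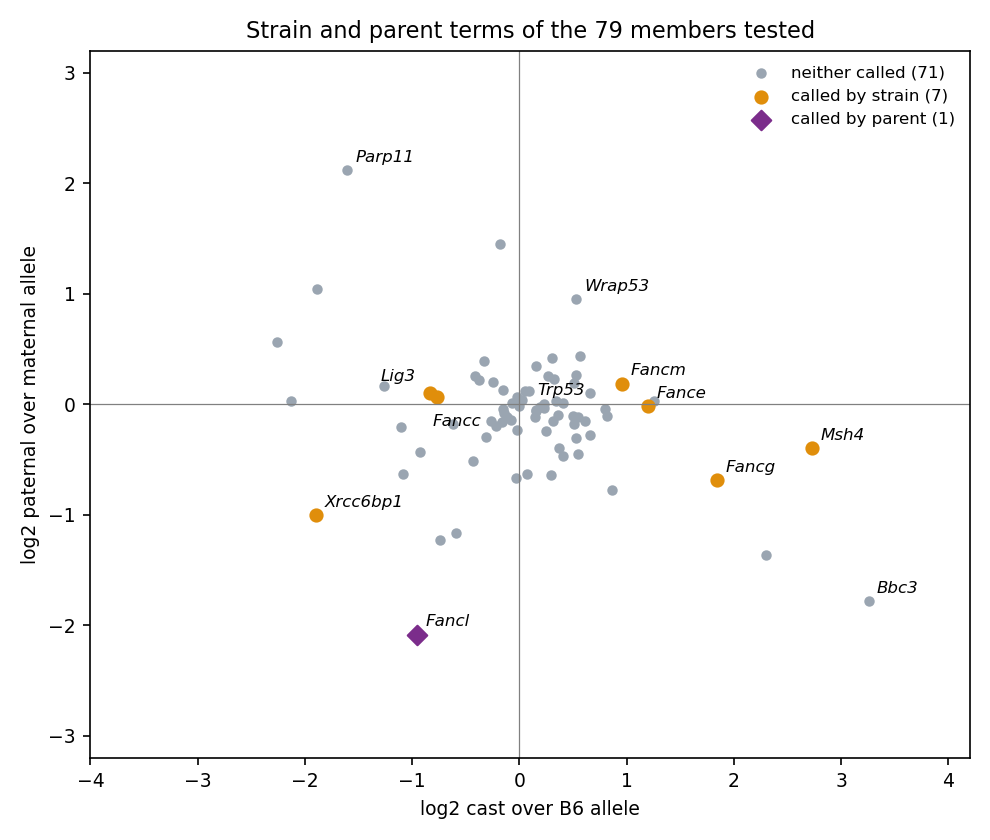
Each of the 79 members tested is a point, with log2 cast over B6 on the horizontal axis and log2 paternal over maternal on the vertical axis. The 7 members called by strain lie between -1.89 and 2.73 on the horizontal axis, Fancl is the called point furthest down, and 71 members were called in neither comparison.

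Some members start close to a neighbour on the other strand, and the share of all genes that do so is not given here. Within 1 kb, 23 pairs of such neighbours were found in which both genes were tested, with 23 members among them. They include Atm with Npat, Brca1 with Nbr1 and Fancd2 with Emc3. No pair had both genes called by strain. Beside a share of 15.4% over all genes, the member was called in 1 pair (Lig3) and the neighbour in 4, with Rpph1 (beside Parp2) at a log2 of -3.67, Taf9 (beside Rad17) at -1.33, Tmem167 (beside Xrcc4) at -1.02 and Zfyve26 (beside Rad51b) at 0.67. Neither gene of any pair was called by parent, beside 1.42% of all genes.

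The third question was whether the level of a member, both alleles summed, differed between the crosses, in which the mother's strain, the litters and any batch cannot be told apart. No member was called by edgeR's quasi-likelihood test, beside 0.103% of all genes tested. At an unadjusted p under 0.05 there were 3 members (3.80%), beside 7.40% of all genes, and DESeq2 called none of the members either (1.1% of all genes), with 4 at an unadjusted p under 0.05 (8.76%). Without reverse embryo 1 the count was again 0, beside 1.37% of all genes. The median log2 of reverse over forward was 0.12 over the members and 0.08 over all genes. In whole embryos, fewer cells of a type and less RNA per cell cannot be told apart.

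The 3 members were Parp8, Trp53i11 and Rad1, named after their values were seen. Parp8, an ADP-ribosyltransferase family gene, was at 18.3, 26.1 and 20.6 RPM in the forward embryos and at 481, 314, 7.35, 75.1 and 64.5 in reverse embryos 1, 2, 3, 5 and 7. The reverse cross held both the highest and the lowest embryo (log2 3.13, SE 0.95, adjusted p = 0.424), and Parp8 was called only without reverse embryo 3 (adjusted p = 0.0778) and with no filter on low counts (adjusted p = 0.000497). Rad1, a subunit of the clamp that activates Atr, was at 22.0, 32.4 and 21.4 RPM in the forward embryos and at 37.9 to 59.8 in the reverse embryos, and the crosses did not overlap (log2 0.94, SE 0.36, adjusted p = 0.559). Trp53i11 was at 11.6, 23.4 and 13.2 RPM in the forward embryos and at 0 to 8.17 in the reverse embryos (log2 -2.47, SE 0.91, adjusted p = 0.550) on 79 reads in all.

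Within the crosses, reverse embryo 1 departed from the other embryos in the level of the most members. The members took 1.09% of its reads and 0.388% to 0.641% of those of the other embryos. Of the 79 tested, 29 were at least 2-fold above the median of the other embryos there and 16 at least 2-fold below. Over all genes tested these shares were 23.6% and 25.6%. In each of the other embryos, 1 to 6 members were 2-fold above and 4 to 11 were 2-fold below. Over all genes tested the shares in those embryos were 6.30% to 12.3% above and 8.48% to 13.2% below.

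Members with a long span in the genome were on median higher in that embryo, and short ones lower. Members under 50 kb were also among those 2-fold above, such as Brca2 (47.7 kb) and Ercc3 (29.85 kb). Over the 26 members of 50 kb or more the median log2 difference from the other embryos was 1.04, and over the 20 members under 15 kb it was -1.01. Across the 79 members the Spearman correlation of this difference with the span was 0.463, and across all genes tested 0.371, as a description over genes that share the same libraries. The same correlation was -0.421 over the members in reverse embryo 3 and lay between -0.214 and 0.105 in the other 6 embryos. The part of RNA quality in this pattern was not tested.

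Rad51b, which acts in homologous recombination, spans 517 kb and was the member with the most reads. It was at 286, 370 and 260 RPM in the forward embryos, at 2070 in reverse embryo 1 and at 646, 174, 281 and 439 in reverse embryos 2, 3, 5 and 7. Brca2 was at 566 in reverse embryo 1 and at 152 to 262 elsewhere, Brca1 at 245 and 54.4 to 109, and Rad54b, a Rad54 family translocase, at 625 and 111 to 308. Xrcc2, which acts in recombination as well, stood at 79.1 and 7.58 to 23.1 although its span is 16.01 kb. These 5 recombination genes were all highest in the same embryo. Fancc, with a span of 212 kb, was not, at 121 there and 121 to 173 elsewhere. Rad54b shares 35.8% of its exon bases with Fsbp on the same strand, so its reads are uncertain.

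**Figure D3:**
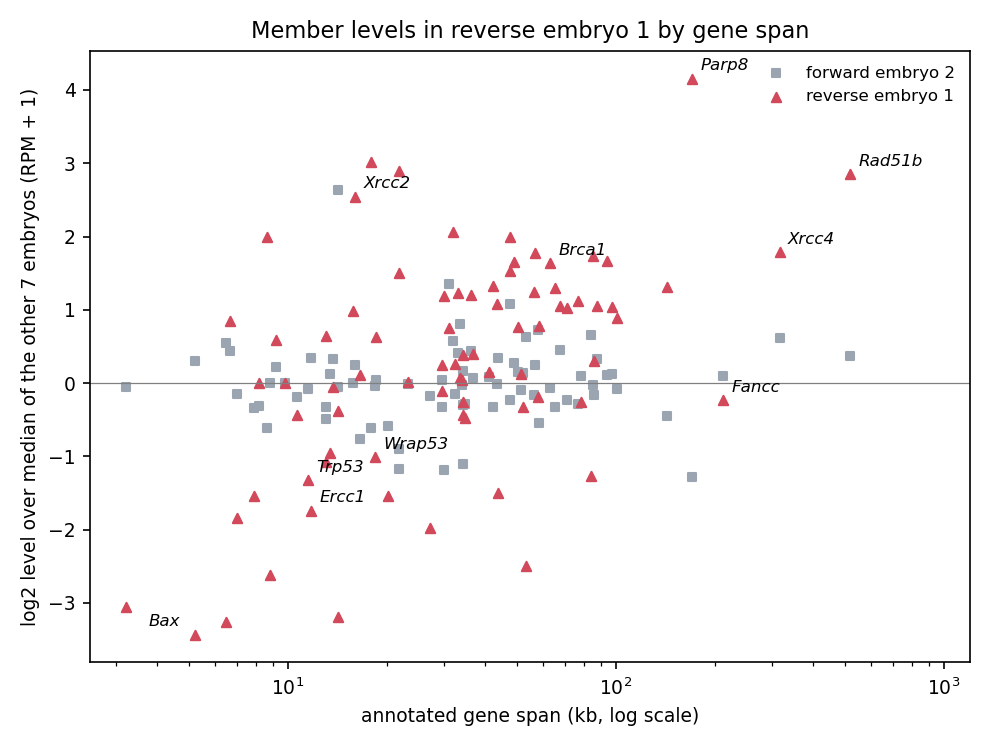
The log2 level of each of 79 members over the median of the other 7 embryos (vertical axis, RPM plus 1) is plotted against the annotated gene span in kb (log scale), with triangles for reverse embryo 1 and squares for forward embryo 2. In reverse embryo 1 long genes such as Rad51b and Xrcc4 lie above 0 and short genes such as Bax and Trp53 below it, while forward embryo 2 stays nearer to 0.

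Several short genes were low in the same embryo. Bax, which opens the outer mitochondrial membrane in apoptosis and spans 5.20 kb, was at 134, 158 and 166 RPM in the forward embryos and at 11.5, 128, 216, 123 and 105 in reverse embryos 1, 2, 3, 5 and 7. Its reads there were 18 maternal and 1 paternal. Trp53 was at 15.7 in reverse embryo 1 and 23.2 to 44.8 elsewhere, and Wrap53 at 52.5 and 88.0 to 115. Rad9a, a clamp subunit like Rad1, was at 3.02 and 27.3 to 64.7. Of the other death genes, Bak1, a relative of Bax, was at 1.22 to 12.8 over the embryos. Bbc3 (Puma) had 12 reads in all, 11 of them maternal reads of reverse embryo 5 and 0 reads in 6 of the embryos.

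**Figure D4:**
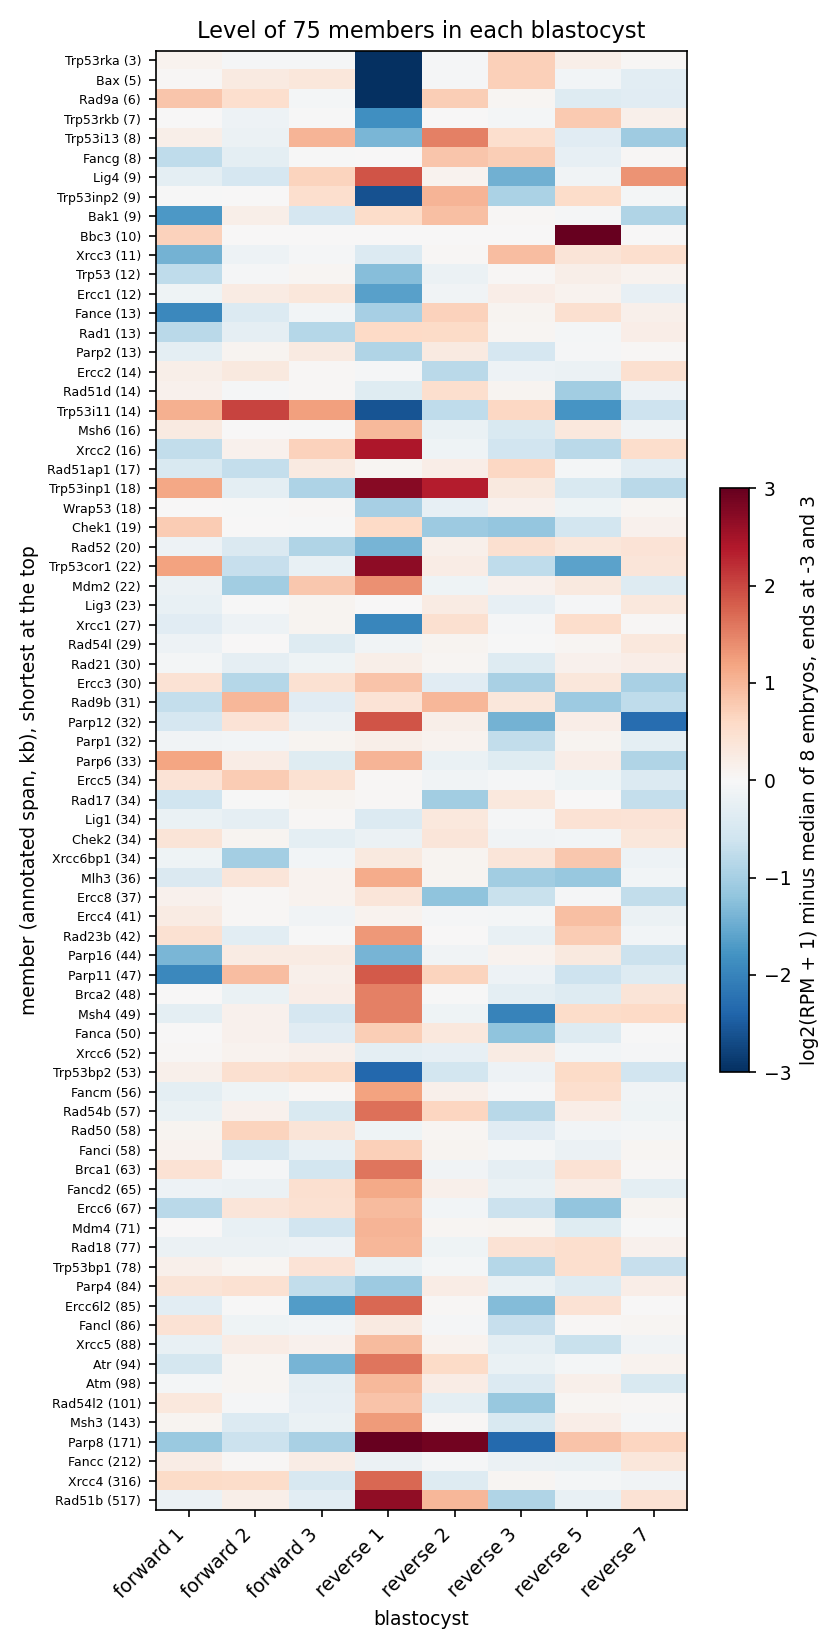
Colours give log2(RPM + 1) of each of 75 of the 79 members tested minus its median over 8 embryos, by embryo (columns) and by member from the shortest gene span at the top to the longest at the bottom, with the span in kb in brackets. The column of reverse embryo 1 is mostly blue at the top and red at the bottom, and Parp8 is red in reverse embryos 1 and 2.

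Some members were read almost from 1 allele in single embryos. Of 478 cases of a member with at least 20 reads in an embryo, 17 (3.56%) were beyond 90:10, beside 7.44% of all genes tested. Fancl, Msh4, Fancg and Xrcc6bp1 gave 9 of the 17. Reverse embryo 1 held 6, with Chek1 and Parp12 maternal there and Parp11, Rad9b, Trp53cor1 and Trp53inp1 paternal. Chek1 had 36 maternal and 5 paternal reads in that embryo and 11 and 34 in forward embryo 1, so cast was the higher allele in both. Its cast share was above 50% in 6 of the 7 embryos with at least 10 reads. It was not called by strain (log2 cast over B6 1.26, SE 0.50, edgeR quasi-likelihood test, adjusted p = 0.115).

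Genes of the same pathways that were not chosen by symbol were read from lists drawn up with earlier results known. Of 52 other repair genes tested, 0 were called by parent (1.42% of all genes), 1 toward cast (Rpa1, beside 4.47%) and 4 toward B6 (Pcna, Tdg, Mbd4 and Usp1, beside 10.9%), with 27 equivalent between parents (35.4%). Pcna, the sliding clamp of replication and repair, had 342 B6 and 18 cast reads in the forward cross and 593 B6 and 43 cast reads in the reverse cross (log2 -3.67, SE 0.41, edgeR quasi-likelihood test, adjusted p = 8.95e-07). Whether reads of near-identical copies of Pcna enter this count was not tested. Rpa1, which coats single-stranded DNA, was cast-biased (log2 1.07, SE 0.25, adjusted p = 0.00532).

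Of 18 other p53 targets tested, 1 was called toward the paternal allele, beside 1.11% of all genes. It was Pmaip1 (Noxa), which promotes apoptosis (log2 1.91, SE 0.52, edgeR quasi-likelihood test, adjusted p = 0.0886). It had 23 maternal and 56 paternal reads in the forward cross and 18 and 124 in the reverse cross, with the paternal share above 50% in 8 of 8 embryos, and the call was lost in 7 of 14 other settings. By strain, Tigar was called toward cast (4.47% of all genes) and Aen and Sesn1 toward B6 (10.9%). Cdkn1a (p21), the cell cycle inhibitor, had paternal shares of 44.8% ± 7.23 (SD, n = 3) and 52.2% ± 20.1 (SD, n = 5), was called in no comparison, and missed equivalence (adjusted p = 0.128).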

How the data were processed

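RNA of 8 single blastocysts was sequenced by SMART-Seq2. The authors aligned reads to mm10 with STAR (2.5.2b in the processing notes, another version in the methods), dropped reads mapping to multiple places, kept reads over annotated SNPs and took read counts per gene and strain from Allelome.Pro. They deposited these counts without normalization or molecular identifiers, after removing further samples. Whether counting used strand is not given in the sources used here, so reads of the 39 members that share exon bases with another gene, and of the near-identical Trp53rka and Trp53rkb, are uncertain. Depth was 1060063 to 1632695 reads per embryo.

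Maternal and paternal libraries were assigned by cross. Genes with at least 10 reads in at least 1 of 16 allele libraries were fitted with edgeR 4.0.16 (R 4.3.3, limma 3.58.1), TMM factors, strain and parent as terms and the quasi-likelihood test. p-values were adjusted by Benjamini-Hochberg over all 12564 autosomal genes tested, with a threshold of 0.1. Equivalence used a pair of one-sided tests at a log2 margin of 1. The cross comparison used summed reads per embryo. Shares were scaled by effective library size and given for embryos with at least 10 reads. Levels are RPM, SNP reads per 1000000 of the effective library, and are not compared between genes. Positions are from GENCODE M21 by symbol for 87 members and from a RefSeq synonym for Xrcc6bp1, and 69 members have a RefSeq promoter window. Reads of 1 embryo form a true pair, which the main fit did not use. The maternal and paternal deviations correlated at 0.0821 to 0.132 in forward and 0.145 to 0.487 in reverse embryos. The alternatives were DESeq2 1.42.0, RLE factors, 1 library size per embryo, other filters, a term for each embryo, a 1.5-fold margin and leaving out each embryo. The fits were tested on simulated counts. Members and lists were chosen with earlier results of these data known. Members named are those called, the 5 with the smallest p by parent and by strain, a core set of 24 genes, the 5 with the most reads, those with a paternal share apart in 1 reverse embryo, and from the lists those called with Cdkn1a and Pmaip1. Others were named after their values were seen. Some members are counted but not reported here by name.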

Additional observations from a re-analysis of the deposited data

Results flagged for a closer look

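Among the 5 reverse embryos, 1 embryo lay far from the others in the level of 19 of 79 members, by a test for a single outlying value that chance meets in about 1 of 20 groups, and in 15 of the 19 this was reverse embryo 1 at the top. Over all genes tested 15.9% met it, and 9.22% with reverse embryo 1 at the top. Among them, in RPM, Rad51b was at 2070, Brca2 at 566.0, Mdm4 at 295, Brca1 at 245, Fancd2 at 193, Xrcc4 at 115, Fanci and Msh3 at 96.0 each, Xrcc2 at 79.1, Atr at 59.8, Trp53cor1 at 18.7, Parp12 at 16.9 and Mdm2 at 9.06. In reverse embryo 5 Ercc4 was apart at 156 and Bbc3 at 8.34, in reverse embryo 7 Fancc at 173, and in reverse embryo 3 Rad21 was lowest at 198. The test was met in the paternal share by 6 of 56 members, beside 7.53% of all genes. Of these, Bax was lowest in reverse embryo 1 at 3.96% and Xrcc3 highest there at 80.3%, Xrcc4 was highest in reverse embryo 2 at 56.4%, and Fancd2 was highest in reverse embryo 5 at 49.1%.

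The difference between paternal and maternal allele changed between the crosses for the 7 members called by strain, since the strain term is that test. Its log2 values of cast over B6 were 2.73 for Msh4, 1.84 for Fancg, 1.20 for Fance, 0.96 for Fancm, -0.77 for Fancc, -0.83 for Lig3 and -1.89 for Xrcc6bp1.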

How the results depend on the processing

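By parent, 1 member was called in the main setting and 2 with DESeq2 and with the replicate block (a term for each embryo), and leaving out single embryos gave 1 to 2. Fancl was called in 14 of 14 alternatives (log2 -2.42 to -1.93). By strain, 7 became 16 with the replicate block, and leaving out single embryos gave 2 to 11. Fancg and Msh4 were called in all 15 settings, Lig3 in 14, Fancc in 12, Fancm in 11, Xrcc6bp1 in 9 and Fance in 7. By cross, 0 became 1 with no filter on low counts, 0 to 1 when leaving out single embryos, and stayed at 0 with a replicate block over the numbers 1 to 3, which the labels tie to nothing shared. Equivalence went from 37 to 0 with the 1.5-fold margin, to 47 with the replicate block and to 14 to 50 when leaving out single embryos. The mean paternal share of the summed reads was 52.2% in the forward cross without members that overlap other genes and 50.8% as the median of members, beside 51.7%, and leaving out single embryos gave 51.4% to 51.8%, and 44.9% to 46.9% in the reverse cross. None of the single-gene fold changes followed over the settings reversed its direction, and the directions of the remaining named genes were not followed. Of 749 single-gene values, among them adjusted p-values of equivalence that have no direction, 111 lost and 21 gained a call. The causes were not tested. Members with few reads, such as Mdm2, Bbc3 and Lig4, are limited by depth.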
